A study of Danio rerio with 4 samples.

Results

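Chemokine ligands and receptors, other than the cxcl12, cxcr4 and ackr3 genes, were examined in sorted endothelial cells of zebrafish. Members were the genes whose symbol begins with ccl, cxcl, ccr, cxcr, xcr or ackr followed by a digit, in upper or lower case. The rule gave 72 of the 31951 genes in the deposited table, namely 15 CXC ligands, 33 CC ligands, 6 CXC receptors, 13 CC receptors, 2 XC receptors and 3 atypical receptors, and it left out 6 genes of the cxcl12, cxcr4 and ackr3 families. Fish of the kdrl:mcherry;kdrl:cxcr1 genotype, called kdrl:cxcr1 here, were set against fish with kdrl:mcherry alone, called wild-type. In both, the kdrl promoter, active in endothelium, drives the red protein mCherry, and in kdrl:cxcr1 it also drives the chemokine receptor gene cxcr1. Endothelial cells were purified from dissociated fish by fluorescence-activated sorting. Libraries came from 2 independent clutches, with 1 library per genotype and clutch, so 4 in all and 2 per genotype. The sources used here give the growth of embryos, but neither their age at sorting nor the number pooled in a clutch.

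Chemokines are small secreted proteins, sorted into CC, CXC and other classes by the spacing of cysteines near their start, that guide leukocytes and other cells through receptors with a bundle of membrane-spanning helices coupled to inhibitory G proteins. Endothelium can make chemokines, hold them on its surface for passing blood cells, and take them up with atypical receptors, which bind the ligand without the usual G protein signal. Fish carry many more CC and CXC ligand genes than mammals, often as tandem copies, and several of these have no clear mammalian counterpart.

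Values were FPKM, in which the fragments of a gene are divided by its length and by the size of the library, so levels of different genes can be set beside each other. Over all genes, the share listed at 0 was 43.5% and 42.0% in the clutch 2 libraries (kdrl:cxcr1 and wild-type) and 31.9% in both clutch 1 libraries. Read depth is not recoverable from these values, and a 0 in a table from Cufflinks can be a failed estimate. All 10 endothelial marker genes matched were above 1 FPKM in at least 2 libraries, with summed levels of 538 and 637 FPKM in kdrl:cxcr1 libraries, against 460 and 863 FPKM in wild-type, so the groups overlapped. Markers of neutrophils and macrophages summed to 1372 and 1957 FPKM in kdrl:cxcr1 cells, against 964 and 1055 FPKM in wild-type. With 2 libraries a group, an exact permutation test cannot give a two-sided p below 0.333.

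Most of the family was low or listed at 0 in these cells. Above 1 FPKM in 2 or more libraries were 27 of the 72 members, or 37.5%, against 55.5% of all genes, and those 27 were the members tested. Of the other 45, 20 were listed at 0 in all 4 libraries, 7 were above 0 but above 1 FPKM in none, and 18 exceeded 1 FPKM in 1 library. The 20 at 0 made up 27.8% of the members, against 24.7% of all genes. They were 13 CC ligands (ccl19a.1, ccl19a.2, ccl27a, ccl33.2, ccl34a.3, ccl34b.8, ccl34b.9, ccl36.1 and the ccl39 genes other than ccl39.5, ccl39.7 and ccl39a.10), 6 CXC ligands (4 cxcl11 genes, cxcl32b.1 and cxcl8b.3) and 1 of 2 XCR1 genes. Every CC, CXC and atypical receptor gene was above 0 in at least 1 library.

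Detection differed between libraries. Above 1 FPKM were 23 members in clutch 1 and 20 in clutch 2 of kdrl:cxcr1, against 37 in clutch 1 and 22 in clutch 2 of wild-type. Wild-type clutch 1 stood apart from the other 3. It alone held 12 of the 18 members that exceeded 1 FPKM in a single library, against 2 in kdrl:cxcr1 clutch 1, 1 in kdrl:cxcr1 clutch 2 and 3 in wild-type clutch 2. Among the 12 were the homeostatic ligand ccl19b (6.49 FPKM), ccl38a.4 (6.98), ccl20b (4.69), 3 cxcl11 genes, CXCR5, the receptor of follicular B cells in mammals (1.93), and ccr10, the CCL27 receptor in mammals (1.83). In kdrl:cxcr1 clutch 2 the gene was ccl27b, a relative of the CCR10 ligand of mammals, at 27.3 FPKM, against 0 in kdrl:cxcr1 clutch 1 and 0.872 and 0 FPKM in wild-type. The share of all genes at 0 was no lower in wild-type clutch 1 than in kdrl:cxcr1 clutch 1, but that is a different measure. The share of all genes above 1 FPKM in a single library was not counted. Whether these counts are particular to the members is therefore not known.

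**Figure D1:**
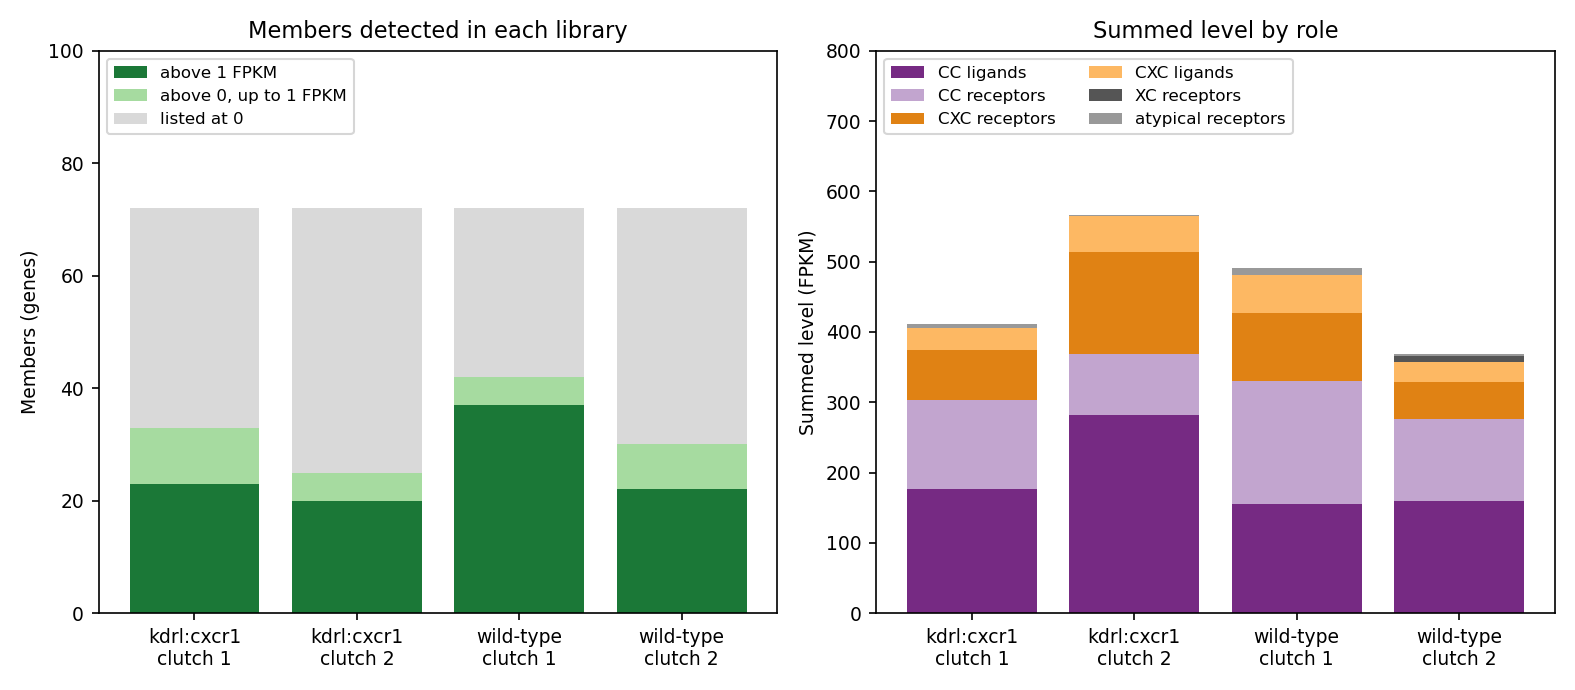
Left, number of the 72 members above 1 FPKM, above 0 and up to 1 FPKM, and listed at 0 in each library. Right, summed FPKM of the members by role in each library; the sums run from 369 FPKM in wild-type clutch 2 to 567 FPKM in kdrl:cxcr1 clutch 2. CC ligands and CC receptors are the larger parts in 3 libraries, and CC ligands and CXC receptors in kdrl:cxcr1 clutch 2.

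A few genes carried most of the level. Member sums were 411 and 567 FPKM in kdrl:cxcr1 clutches 1 and 2, against 491 and 369 FPKM in wild-type clutches 1 and 2, so the genotypes overlapped. The 10 members with the highest mean held 83.8% and 83.4% of those sums in kdrl:cxcr1 and 76.8% and 73.2% in wild-type. CC ligands summed to 176 and 282 FPKM in kdrl:cxcr1 libraries, against 155 and 159 FPKM in wild-type, which did not overlap. These sums hold ccl34a.4, at 56.7 and 41.8 FPKM in kdrl:cxcr1 cells, against 35.7 and 15.4 FPKM in wild-type. Without that gene the CC ligand sums overlapped. CXC receptors summed to 70.5 and 145 FPKM in kdrl:cxcr1 cells, against 96.7 and 52.5 FPKM in wild-type, and overlapped.

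Genes given the symbol cxcr1, in upper or lower case, come first, since the genotype label names cxcr1. The gene cxcr1 (ENSDARG00000052088), whose product binds CXCL8 and brings in neutrophils, read 12.8 and 0 FPKM in kdrl:cxcr1 clutches 1 and 2, against 8.14 and 0 FPKM in wild-type clutches 1 and 2. A separate gene (ENSDARG00000054975) is given the symbol CXCR1, which does not settle that it is a cxcr1 gene and not another receptor. It read 0 and 8.21 FPKM in kdrl:cxcr1 libraries, against 3.89 and 0 FPKM in wild-type. Neither separated the genotypes, and kdrl:cxcr1 clutch 2 was listed at 0 for cxcr1, the gene its label says was added. Directions by genotype below are therefore between libraries as labelled. The sources used here do not say whether the transgene's transcript was counted under either gene, so these values cannot check the labels.

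The genotype comparison asked which chemokine genes differed between libraries labelled kdrl:cxcr1 and those labelled wild-type. It called 0 of the 27 tested members with limma at an adjusted p under 0.05, where 0.0113% of the 17723 genes tested were called. At an unadjusted p under 0.05 there were 4 of 27 members (ccl34b.1, ccl38a.5 and ccr12b.1 higher, cxcl19 lower), against 6.80% of all genes. Every adjusted p of a tested member was 0.699 or more. By groups that did not overlap, 8 members were higher in kdrl:cxcr1, where 26.0% of all genes were, and 7 were lower, where 13.6% were. Of these 15, ccl35.2 and ccr12b.1 had passed the filter through kdrl:cxcr1 alone, and cxcl19, CXCR3, ccr12a and ACKR2 through wild-type alone, so for those 6 a difference was built into the selection. The median log2 fold change was 0.25 over the tested members and 0.16 over all genes tested. In clutch 1 the members' median was -0.24, with 11 above and 16 below 0, and in clutch 2 it was 0.77, with 15 above and 10 below. The same medians over all genes were 0.14 and 0.15.

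Among CC ligands, ccl34b.1 had the clearest separation of those above 0 in every library. This gene, in zebrafish a marker of a subset of microglia, read 20.6 and 67.6 FPKM in kdrl:cxcr1 cells, against 3.78 and 7.81 FPKM in wild-type. Both kdrl:cxcr1 libraries lay above both wild-type libraries, with log2 differences of 2.18 in clutch 1 and 2.96 in clutch 2. The fitted log2 difference of 2.57 (SE 0.68) was not called by limma (adjusted p = 0.699).

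Other CC ligands also read higher under the kdrl:cxcr1 label. The gene ccl38a.5, which RefSeq also lists under the older name ccl2, read 14.6 and 38.6 FPKM in kdrl:cxcr1 libraries, against 5.50 and 0 FPKM in wild-type. Its fitted log2 difference of 3.29 (SE 1.02; adjusted p = 0.699) rests in good part on the 0 in wild-type clutch 2, since the log2 difference was 1.26 in clutch 1 and 5.31 in clutch 2. Levels of ccl35.1 were 9.32 and 22.0 FPKM in kdrl:cxcr1 cells, against 4.996 and 5.38 FPKM in wild-type (fitted log2 difference 1.32, SE 0.57), with no overlap. For ccl34a.4 they were 56.7 and 41.8 FPKM in kdrl:cxcr1 libraries, against 35.7 and 15.4 FPKM in wild-type (1.02, SE 0.50), again with no overlap. The low gene ccl35.2 read 1.56 and 4.53 FPKM in kdrl:cxcr1 cells, against 0.948 and 0 FPKM in wild-type.

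Most neutrophil and macrophage markers also read higher under the kdrl:cxcr1 label. Of the 15 tested markers 13 had a positive log2 fold change, where 58.8% of all genes tested had one, with a median of 0.56. Without overlap, 6 were higher, where 26.0% of all genes were, and 1 was lower, where 13.6% were. At an unadjusted p under 0.05 there were 3 higher, namely the neutrophil gene npsn, the macrophage gene cd68 and an MFAP4 gene (ENSDARG00000090783), and 1 lower, the complement gene c1qc. Levels of npsn were 572 and 583 FPKM in kdrl:cxcr1 libraries, against 132 and 292 FPKM in wild-type. Without npsn, the marker sums given above overlapped, at 799.7 and 1374 FPKM in kdrl:cxcr1 cells, against 831 and 763 FPKM in wild-type. The gene cd68 read 23.1 and 69.4 FPKM in kdrl:cxcr1 libraries, against 11.02 and 13.8 FPKM in wild-type, while c1qc had 0 and 0 FPKM in kdrl:cxcr1 cells, against 1.84 and 10.4 FPKM in wild-type. The leukocyte gene ptprc was listed at 0 in all 4 libraries.

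Most red cell markers read higher there too, with 5 of 6 positive, gata1a negative and a median log2 fold change of 1.03. Without overlap, 4 were higher, where 26.0% of all genes were, and 0 lower, where 13.6% were. Their sums overlapped, at 6457 and 1434 FPKM in kdrl:cxcr1 libraries, against 3044 and 1608 FPKM in wild-type. Without the globin gene hbae3 the sums did not overlap, at 86.4 and 86.3 FPKM in kdrl:cxcr1 cells, against 44.5 and 28.3 FPKM in wild-type. The red cell carbonic anhydrase gene cahz read 36.1 and 36.5 FPKM in kdrl:cxcr1 cells, against 17.3 and 13.0 FPKM in wild-type. Summed epidermal markers were lower, at 867 and 620 FPKM in kdrl:cxcr1 libraries, against 963 and 1208 FPKM in wild-type over 10 genes. Without krt4 these sums overlapped, at 627 and 575 FPKM in kdrl:cxcr1 cells, against 620 and 829 FPKM in wild-type. Of the 10 genes, 8 had a negative log2 fold change and 2 a positive value, among them krt8 (0.20), where 58.8% of all genes tested had a positive one. Without overlap, 6 were lower, where 13.6% of all genes were, and 0 higher, where 26.0% were. Summed mural and stromal markers overlapped, at 877 and 944 FPKM in kdrl:cxcr1 cells, against 942 and 686 FPKM in wild-type over 11 genes, with PDGFRB at 0 throughout. Of the 10 tested, 4 were higher without overlap, where 26.0% of all genes were, and 1 lower, where 13.6% were. At an unadjusted limma p under 0.05 there were 2 higher and 0 lower, against 6.80% of all genes. Without COL1A2 the sums narrowly did not overlap, at 662.5 and 766 FPKM in kdrl:cxcr1 cells, against 662.3 and 504 FPKM in wild-type. None of these lists had a called gene. The part of these markers in the ligand values was not tested. In bulk cells, fewer cells of a type and less RNA per cell cannot be told apart.

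A pair of lower CC ligands stood against these, and both were highest in wild-type clutch 2. Levels of ccl38.6 were 2.56 and 0.624 FPKM in kdrl:cxcr1 libraries, against 4.23 and 25.4 FPKM in wild-type (fitted log2 difference -2.29, SE 0.94; -0.56 in clutch 1 and -4.02 in clutch 2). Those of ccl44 were 3.12 and 0 FPKM in kdrl:cxcr1 cells, against 3.28 and 14.1 FPKM in wild-type, so clutch 1 held almost no difference. In the RefSeq gene order of a later assembly (GRCz12tu), ccl38.6 and ccl38a.5 lie within 5 gene positions of each other, as do ccl44 and ccl25b. The 2 tested genes of that run of 3 thus had opposite signs, and its remaining gene, ccl38a.4, was above 0 in wild-type clutch 1 alone. How fragments were divided between such copies is not known, so values of single copies are uncertain.

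The highest CC ligand was ccl25b, whose mammalian counterpart draws CCR9-bearing T cell progenitors to the thymus and lymphocytes to the gut. It read 60.0 and 79.6 FPKM in kdrl:cxcr1 libraries, against 68.4 and 85.0 FPKM in wild-type. Here the libraries of the 2 genotypes overlapped, and the log2 fold change was -0.14 (SE 0.34; adjusted p = 0.949). It ranked at 1062 among all genes by mean level. The ligand ccl20a.3, a relative of the CCR6 ligand of mammals, read 2.60 and 0 FPKM in kdrl:cxcr1 cells, against 4.27 and 0 FPKM in wild-type.

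CXC ligands were lower than the leading CC ligands. The highest was cxcl18b, a fish chemokine that attracts zebrafish neutrophils, at 15.7 and 21.8 FPKM in kdrl:cxcr1 libraries, against 18.7 and 11.3 FPKM in wild-type, with overlapping groups. CXCL14, mostly an epithelial chemokine in mammals, read 4.55 and 5.06 FPKM in kdrl:cxcr1 cells, against 15.9 and 1.97 FPKM in wild-type, so the wild-type libraries lay on either side of both kdrl:cxcr1 libraries. The CXCL8 gene cxcl8a, a ligand of the transgene's receptor, read 9.42 and 19.7 FPKM in kdrl:cxcr1 libraries, against 3.003 and 7.69 FPKM in wild-type. Its groups did not overlap, and the log2 difference was similar in clutch 1 (1.38) and clutch 2 (1.25), without passing the test (fitted log2 difference 1.32, SE 0.64; adjusted p = 0.699).

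In the opposite direction, cxcl19 read 0.582 and 0 FPKM in kdrl:cxcr1 cells, against 4.76 and 6.23 FPKM in wild-type (fitted log2 difference -2.36, SE 0.67; adjusted p = 0.699). This gene had passed the filter through wild-type alone. RefSeq places it in 1 run with cxcl8b.3 and cxcl8b.1, a second CXCL8 gene. That neighbour read 1.14 and 4.04 FPKM in kdrl:cxcr1 libraries, against 1.94 and 0.134 FPKM in wild-type, with overlap and opposite signs in the clutches (-0.46 in clutch 1 and 2.15 in clutch 2). The cxcl11 genes, relatives of the interferon-induced ligands of CXCR3, were above 0 in wild-type only, and there in 3 of 7. None of the 7 was tested, and their levels lay almost wholly in wild-type clutch 1. Above 0 in that library alone were cxcl11.5 (1.01 FPKM) and cxcl11.7 (3.49 FPKM). The third, cxcl11.6, read 4.40 FPKM there and 0.231 FPKM in wild-type clutch 2.

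**Figure D2:**
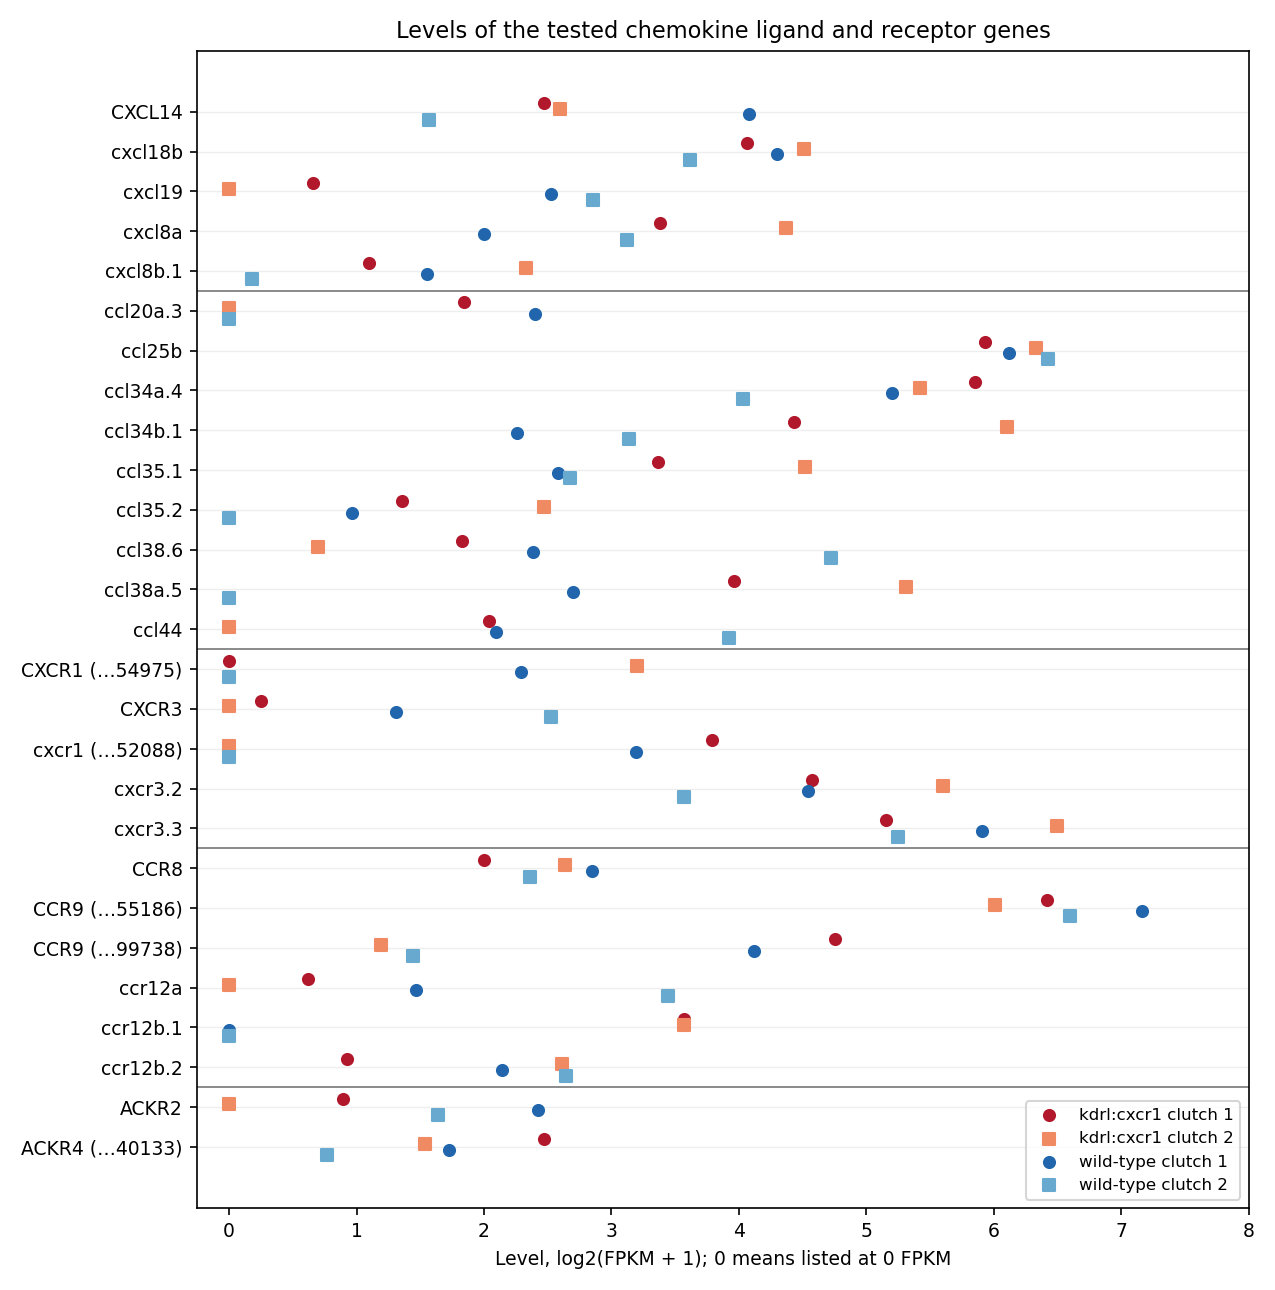
Level of each of the 27 tested members in each library, as log2(FPKM + 1), with kdrl:cxcr1 in red shades, wild-type in blue shades, circles for clutch 1 and squares for clutch 2; lines part the roles, from CXC ligands at the top to atypical receptors. Brackets hold the end of the Ensembl identifier where a symbol is given to more than 1 gene. The CCR9 gene ENSDARG00000055186 and ccl25b have the highest means, cxcr3.3 is the highest in kdrl:cxcr1 clutch 2, and 11 members have a point at 0.

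Of the CXC receptors, cxcr3.3 and cxcr3.2 were the highest. The receptor cxcr3.2 directs zebrafish macrophages, and cxcr3.3 has been described in zebrafish as a scavenging counterpart that opposes it. Levels of cxcr3.2 were 22.8 and 47.6 FPKM in kdrl:cxcr1 cells, against 22.3 and 10.9 FPKM in wild-type. Clutch 1 libraries were nearly equal (log2 difference 0.03), while clutch 2 gave 2.03, and the fitted value was 1.03 (SE 0.55; adjusted p = 0.704). For cxcr3.3 the levels were 34.7 and 89.2 FPKM in kdrl:cxcr1 libraries, against 59.0 and 36.9 FPKM in wild-type, with overlap and opposite signs (-0.75 in clutch 1 and 1.25 in clutch 2). Both were thus highest in kdrl:cxcr1 clutch 2, the library with the highest sum of neutrophil and macrophage markers (1957 FPKM). The part of those markers in the values was not tested. Another gene of the family, given as CXCR3, was low, at 0.193 and 0 FPKM in kdrl:cxcr1 cells, against 1.48 and 4.76 FPKM in wild-type.

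CC receptors were led by CCR9 (ENSDARG00000055186), the receptor of CCL25 on developing T cells and gut lymphocytes in mammals. It read 84.3 and 63.4 FPKM in kdrl:cxcr1 libraries, against 142 and 95.6 FPKM in wild-type, the highest mean of any member (rank 808 among all genes). The kdrl:cxcr1 libraries were the lower pair without overlap, by a similar amount in clutch 1 (-0.75) and clutch 2 (-0.59), and the fitted log2 difference of -0.67 (SE 0.36) did not pass (adjusted p = 0.708). A second CCR9 gene (ENSDARG00000099738) read 26.0 and 1.29 FPKM in kdrl:cxcr1 cells, against 16.3 and 1.71 FPKM in wild-type, a difference between clutches taken up below. With ccl25b, both parts of the CCL25 pair were thus among the 10 highest members. Lymphocyte markers had summed levels of 17.0 and 11 FPKM in kdrl:cxcr1 libraries, against 5.55 and 58.9 FPKM in wild-type over 11 genes, and cd4-1, cd79b and nkl.2 were listed at 0 throughout. Without cd79a the sums did not overlap, at 12.9 and 9.14 FPKM in kdrl:cxcr1 cells, against 5.14 and 6.54 FPKM in wild-type. The part of these markers in the CCR9 and ccl25b values was not tested.

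The 3 ccr12 genes, receptors of the CC class, each had their own pattern. Levels of ccr12b.1 were 10.9 and 10.8 FPKM in kdrl:cxcr1, while it was listed at 0 in both wild-type libraries, so no fold is given. The gene had passed the filter through kdrl:cxcr1 alone, so a difference was built into its selection. With that limit, it had the smallest genotype p of any member, yet was not called by limma (adjusted p = 0.699). Its neighbour in the RefSeq order, ccr12b.2, read 0.900 and 5.12 FPKM in kdrl:cxcr1 cells, against 3.41 and 5.26 FPKM in wild-type, with overlap. Levels of ccr12a, which had passed the filter through wild-type alone, were 0.532 and 0 FPKM in kdrl:cxcr1 libraries, against 1.76 and 9.90 FPKM in wild-type (fitted log2 difference -2.15, SE 0.89; adjusted p = 0.699).

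Several members peaked in wild-type clutch 2. There ccr12a, ccl44 and ccl38.6 reached 9.90, 14.1 and 25.4 FPKM, and an XCR1 gene (ENSDARG00000054847), the receptor of cross-presenting dendritic cells in mammals, read 8.77 FPKM there against 0 in the other 3. The B cell receptor gene cd79a read 4.07 and 1.86 FPKM in kdrl:cxcr1 cells, against 0.402 and 52.4 FPKM in wild-type. Among other lymphocyte markers il7r was also highest there, reading 4.80 and 0.848 FPKM in kdrl:cxcr1 cells, against 2.87 and 5.34 FPKM in wild-type. Others did not peak there, since cd79b was listed at 0 in all 4 libraries, and RAG2 and lck at 0 in wild-type clutch 2. RAG1 had its lowest value there (0.074 FPKM). The part of cd79a and il7r in the member values was not tested.

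Atypical receptors were low. ACKR2, which takes up inflammatory CC chemokines in mammals, read 0.854 and 0 FPKM in kdrl:cxcr1 libraries, against 4.35 and 2.11 FPKM in wild-type, without overlap (fitted log2 difference -1.58, SE 0.74; adjusted p = 0.699). It had passed the filter through wild-type alone. ACKR4 (ENSDARG00000040133), a scavenger of CCL19, CCL21 and CCL25 in mammals, read 4.56 and 1.90 FPKM in kdrl:cxcr1 cells, against 2.31 and 0.705 FPKM in wild-type. It was higher in kdrl:cxcr1 within both clutches (0.75 and 0.77), and clutch 1 was the higher clutch in both genotypes, so the groups overlapped. A second ACKR4 gene (ENSDARG00000078729), not tested, read 0.112 and 0.135 FPKM in kdrl:cxcr1 libraries, against 3.33 and 0.439 FPKM in wild-type. Its direction was the opposite, with log2 differences of -1.96 in clutch 1 and -0.34 in clutch 2. The remaining receptor given as CCR8, with 3.001 and 5.20 FPKM in kdrl:cxcr1 libraries, against 6.20 and 4.14 FPKM in wild-type, also overlapped, and CCR7, the CCL19 receptor in mammals, exceeded 1 FPKM in kdrl:cxcr1 clutch 1 alone (1.42 FPKM).

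Within clutches, the 27 tested members split evenly. In both clutches 9 were higher in kdrl:cxcr1, where 36.0% of all genes were, 9 were lower in both, where 21.0% were, and 9 had opposite signs or a tie. Among the higher, ccl35.2 and ccr12b.1 had passed the filter through kdrl:cxcr1 alone. Among the lower, cxcl19, CXCR3, ccr12a and ACKR2 had passed through wild-type alone, so the direction of all these was built into the selection. Those with opposite signs included CXCL14, cxcl18b, cxcl8b.1, CXCR1, cxcr3.3 and CCR8. With 1 library per genotype in a clutch, the difference between clutches in the genotype effect has no replicates and was not tested.

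**Figure D3:**
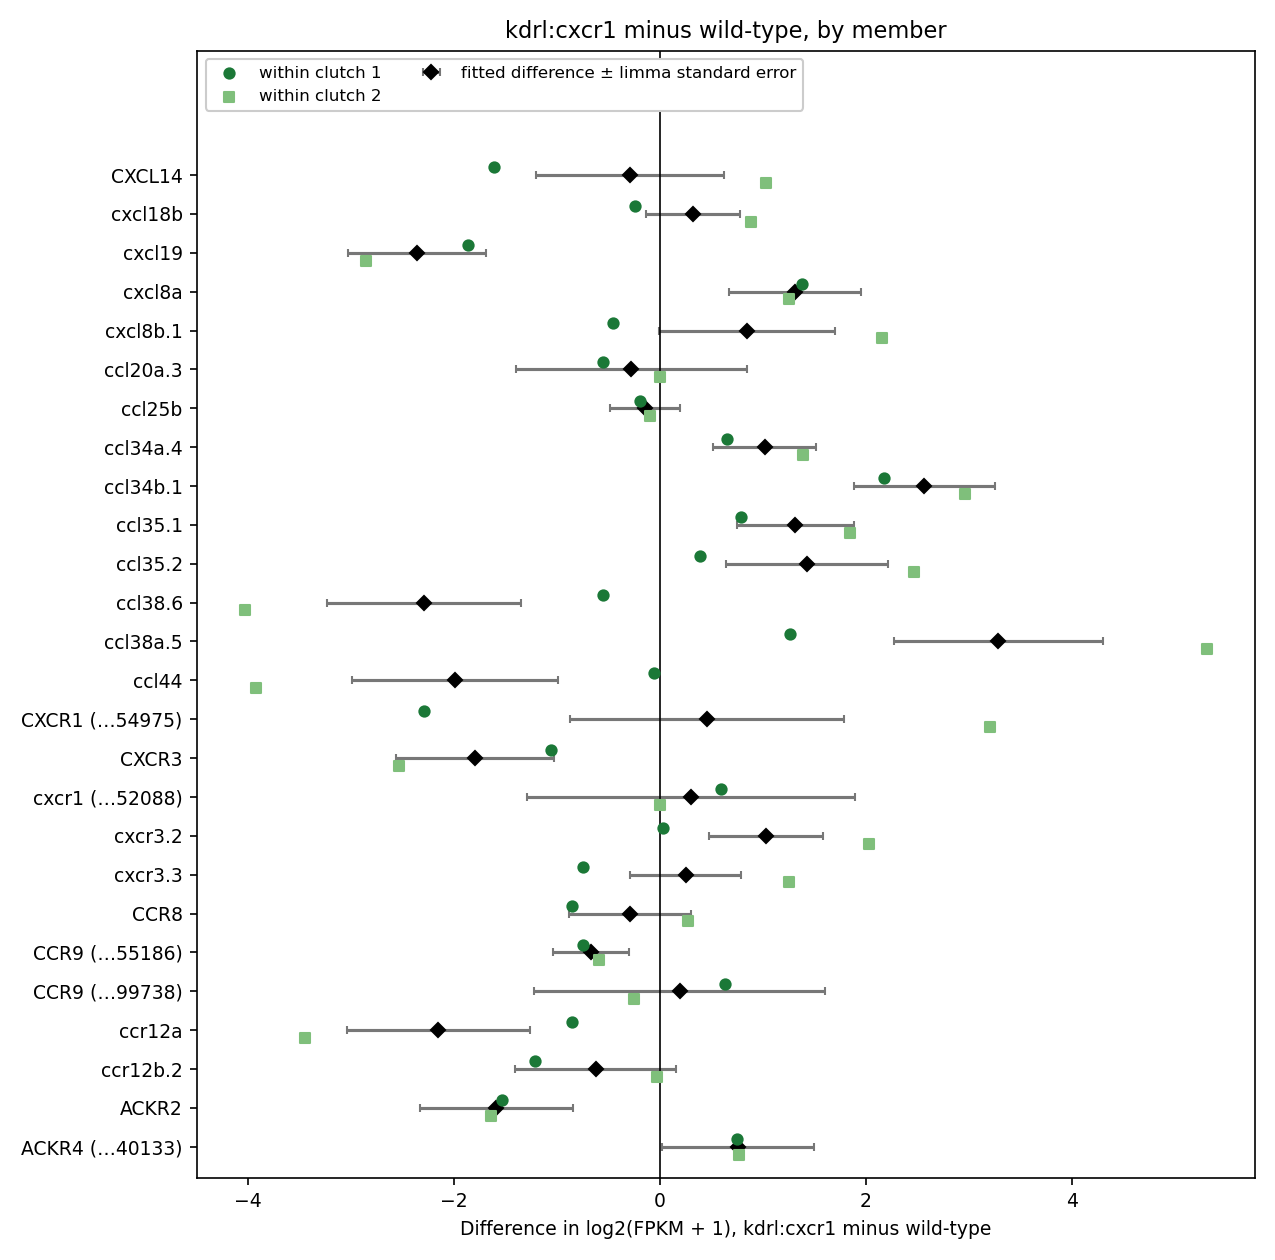
Difference in log2(FPKM + 1), kdrl:cxcr1 minus wild-type, for 26 tested members; ccr12b.1 is left out because wild-type was listed at 0. Diamonds are the fitted difference with limma's standard error, and circles and squares the difference within clutch 1 and clutch 2 (1 library against 1 library). ccl38a.5 and ccl34b.1 lie farthest to the right, and the clutches fall on opposite sides of 0 for ENSDARG00000054975 (CXCR1) and CXCL14.

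The clutch comparison set the 2 libraries of clutch 2 against the 2 of clutch 1. It called 0 of 27 members with limma, where 0.0169% of genes were called, and gave 3 members at an unadjusted p under 0.05, where 9.20% of genes were. Without overlap, 2 members were higher in clutch 2 (ccl25b and ccr12b.2), where 15.5% of all genes were, and 4 were lower (ccl20a.3, cxcr1, the second CCR9 gene and ACKR4), where 20.4% were. Of these, ccl20a.3 and cxcr1 had passed the filter through clutch 1 alone. The median difference was 0.00 over the members and -0.06 over all genes.

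The second CCR9 gene (ENSDARG00000099738) had the widest difference by clutch of the members above 0 in every library. It read 1.29 and 1.71 FPKM in clutch 2 (kdrl:cxcr1 and wild-type) and 26.0 and 16.3 FPKM in clutch 1, a log2 difference of -3.12 (SE 0.55; adjusted p = 0.383). Both clutch 2 libraries lay far below both of clutch 1, and the first CCR9 gene did not follow it, with overlapping clutches and a log2 difference of -0.49 (SE 0.42). The gene cxcr1 was listed at 0 in both clutch 2 libraries and read 12.8 and 8.14 FPKM in clutch 1 (adjusted p = 0.383). For ccl20a.3, clutch 2 was likewise at 0 in both, and clutch 1 read 2.60 and 4.27 FPKM (adjusted p = 0.392).

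The other members named by clutch differed by less than their error allowed to be called. ACKR4 (ENSDARG00000040133) was lower in clutch 2 at 1.90 and 0.705 FPKM, against 4.56 and 2.31 FPKM in clutch 1, and ccr12b.2 higher at 5.12 and 5.26 FPKM in clutch 2, against 0.900 and 3.41 FPKM in clutch 1. Overlapping by clutch were cxcl8a, with a log2 difference of 1.05 (SE 0.75), ccl34a.4 with -0.80 (SE 0.59), and CXCL14 with -1.19 (SE 0.80). Of the 10 endothelial markers, 7 were higher in clutch 2 without overlap, where 15.5% of all genes were, and 0 lower, where 20.4% were. Their sums were 637 and 863 FPKM in clutch 2, against 538 and 460 FPKM in clutch 1. Red cell markers summed to 1434 and 1608 FPKM in clutch 2, against 6457 and 3044 FPKM in clutch 1, which is the globin gene hbae3 almost alone. Without hbae3 the sums of the other 5 overlapped between clutches, at 86.3 and 28.3 FPKM in clutch 2, against 86.4 and 44.5 FPKM in clutch 1. The share of genes at 0, given above, also separated the clutches. So did the share of all FPKM held by the gene rn7sl1. That share was 30.06% and 23.98% in clutch 2 (kdrl:cxcr1 and wild-type), against 37.54% and 39.79% in clutch 1. The part of both shares in the clutch values was not tested.

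**Figure D4:**
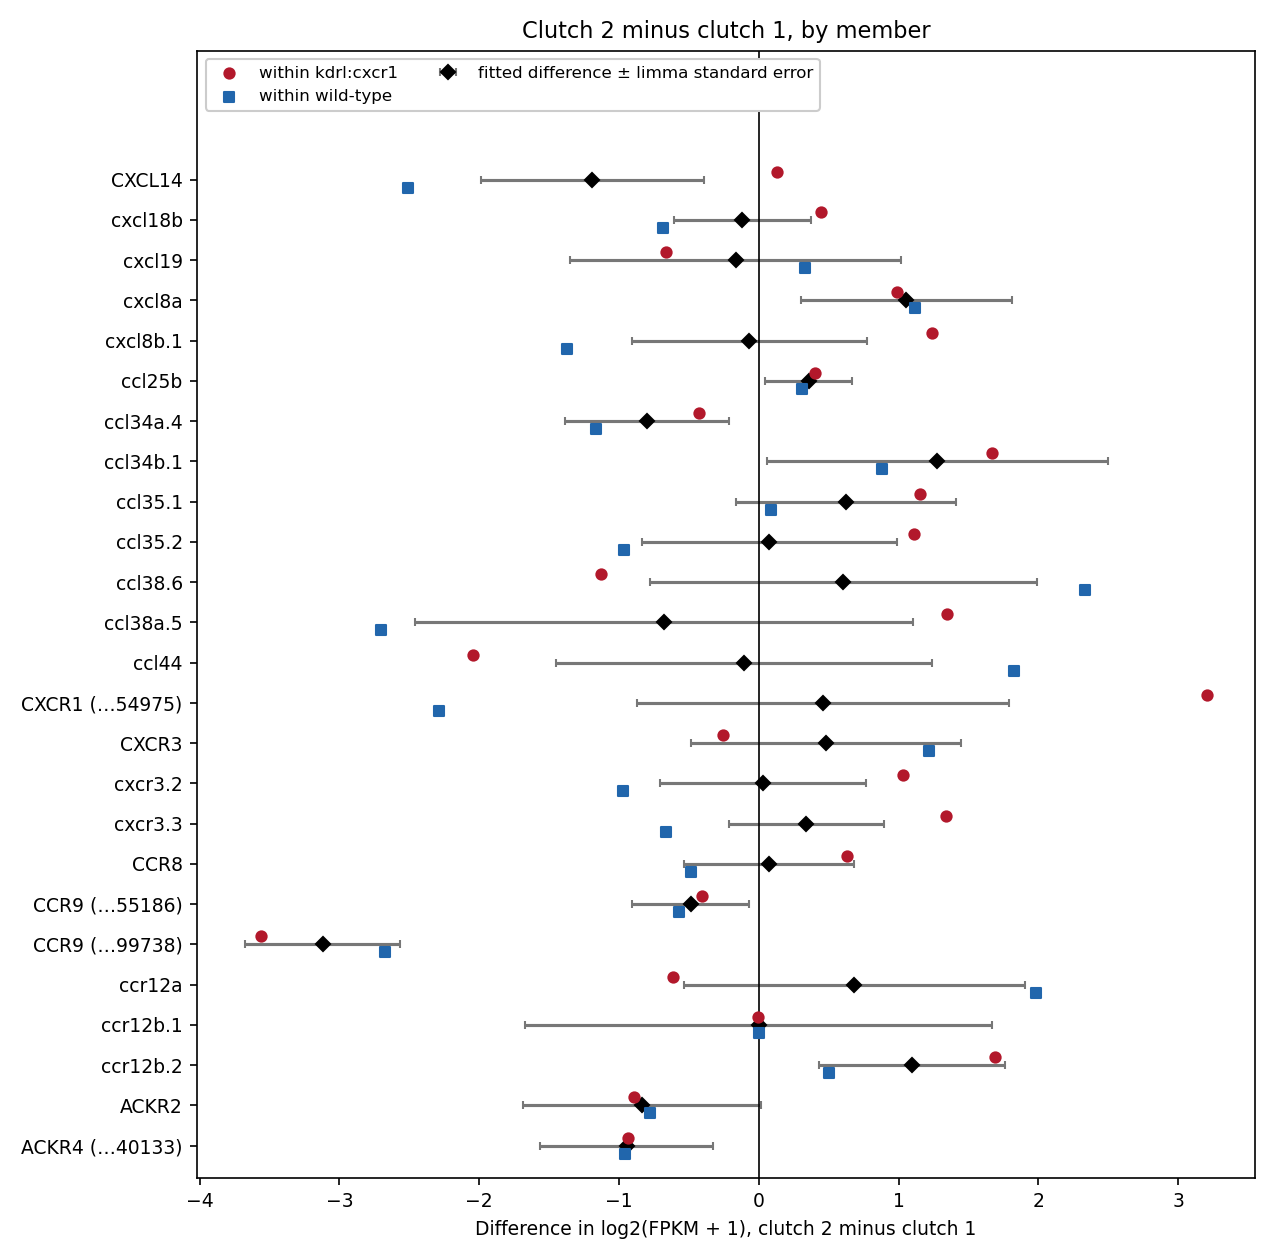
Difference in log2(FPKM + 1), clutch 2 minus clutch 1, for 25 tested members; cxcr1 and ccl20a.3 are left out because clutch 2 was listed at 0. Diamonds are the fitted difference with limma's standard error, and circles and squares the difference within kdrl:cxcr1 and within wild-type. The second CCR9 gene (ENSDARG00000099738) lies farthest to the left, at -3.12, with both genotypes on the same side.

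Genes that carry the receptors' signal were examined beside the members. Of 71 entries in the list, among them G proteins, arrestins, receptor kinases and downstream kinases, 45 matched a symbol, giving 50 genes, of which 43 were tested. None of the 43 passed by genotype or by clutch (0 and 0). At an unadjusted genotype p under 0.05 there were 4 of 43, all higher in kdrl:cxcr1, namely rac2, GNAQ, GRK6 and a GNAI2 gene, beside 6.80% of all genes. Without overlap, 16 were higher, where 26.0% of all genes were, and 3 lower, where 13.6% were. The median log2 fold change of the 43 was 0.15, against 0.16 over all genes.

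Of these, rac2, the Rac GTPase of blood cells that neutrophils need to migrate, read 47.1 and 57.4 FPKM in kdrl:cxcr1 cells, against 19.1 and 24.5 FPKM in wild-type (fitted log2 difference 1.23, SE 0.36; adjusted p = 0.699). The inhibitory G protein gene GNAI2 (ENSDARG00000017294) read 26.6 and 26.8 FPKM in kdrl:cxcr1 libraries, against 15.1 and 9.21 FPKM in wild-type. Neither overlapped between genotypes, and the part of the neutrophil and macrophage markers in these values was not tested. The arrestin gene ARRB2 (ENSDARG00000011545), which takes activated receptors off the surface, read 69.1 and 86.3 FPKM in kdrl:cxcr1 cells, against 48.1 and 39.4 FPKM in wild-type (0.81, SE 0.33).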

How the data were processed

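RNA of sorted endothelial cells was sequenced from 4 libraries, for which the labels' protocols name the SMARTer Universal Low Input RNA kit. The authors deposited FPKM values, 1 column per library; the submitters' processing notes name cutadapt, TopHat2 2.0.11, Cufflinks 2.2.1 and GRCz10. The sources used here give no annotation release, filter or strand setting. Low FPKM values showed no whole-read steps, so depth and counting error are unknown. Ensembl identifiers were paired with symbols for 26120 of 31951 genes.

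Genotype and clutch came from sample titles. Two-sided tests used limma 3.58.1 (R 4.3.3) with an intensity trend on log2(FPKM + 1), over 17723 genes with at least 1 FPKM in at least 2 libraries, p adjusted by Benjamini-Hochberg, called under 0.05. Fold changes on this scale understate those of low genes, and p-values rest on limma's pooled spread (median SE 0.623). The procedure was tested on simulated data with large known changes, no clutch effect and less spread than here. That test does not measure how often changes like those of the members are found. The clutch number pairs the libraries, as the labels give it. Deviations from the genotype means correlated at 0.116 within clutches. Clutch as a block, pseudocounts of 0.1 and 5, no filter, a minimum of 5 FPKM, median-of-ratios scaling, no trend and leaving out each library were the alternatives, and members above 0 in all 4 libraries were added after seeing the data.

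Members and lists were chosen with earlier results of these data known. Values were given for both genes with the symbol cxcr1 in upper or lower case, the 10 highest members and the 8 members with the smallest unadjusted p in each comparison. Other members named were chosen after their values were seen. RefSeq gene order (GRCz12tu) served only to find neighbours, within 5 positions, for the 54 members matched by symbol. No sequences were used here.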

Additional observations from a re-analysis of the deposited data

How the results depend on the processing

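No member was called by genotype or by clutch under any alternative run (0 in each). Over all genes, 2 were called by genotype and 3 by clutch. By genotype 0 were called with the clutch as a replicate block, without a filter, without the intensity trend, with a pseudocount of 0.1, and with any library left out (0 to 0). By clutch 1 was called without a filter, 1 without the trend and 1 with a pseudocount of 0.1, and 0 to 15 with a library left out. The replicate block changed no member's call. By genotype it gave 8 of 27 members at an unadjusted limma p under 0.05, against 4 in the main run. Over all genes it gave 1458 of 17723, against 1206.

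The median log2 fold change of the members by genotype was 0.25. It was 0.92 with wild-type clutch 1 left out, -0.37 with wild-type clutch 2 left out, -0.29 with no filter and 0.02 after median-of-ratios scaling, so its direction turned with wild-type clutch 2 left out and with no filter. That scaling moved the median of all genes to -0.03, against 0.16. Over the 16 tested members above 0 in all 4 libraries it was 0.29.

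Of 22 named members, 13 kept their sign by genotype in every alternative run, and 9 turned sign with a library left out. Their log2 fold changes with 1 library left out ran from -1.54 to 0.97 for CXCL14, -0.016 to 0.67 for cxcl18b, -1.48 to 0.92 for ccl20a.3, -0.34 to 0.061 for ccl25b, -1.14 to 2.06 for CXCR1, -1.60 to 2.19 for cxcr1, -0.42 to 0.92 for cxcr3.3, -1.59 to 1.98 for the second CCR9 gene and -1.47 to 0.22 for ccr12b.2. By clutch, all 8 named members kept their sign. Depth is unknown, so low members cannot be told from absent ones.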
